A study of Mus musculus with 8 samples.

Results

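Dipeptidases and aminopeptidases finish the breakdown of proteins: peptides released by the proteasome or in the lysosome are trimmed to tripeptides and dipeptides, and these to free amino acids. The 10 genes described here encode cytosolic and lysosomal enzymes that make or cleave such short peptides. These genes were chosen by name and not by a rule on their values, but with earlier results of these data known. They are Pepd, Cndp2, Lap3, Npepps, Dpp3, Dpp7, Dpp8, Dpp9, Tpp1 and Tpp2, 10 of the 20207 genes in the deposited files, and all 10 are among the 12561 genes whose RPKM summed over the libraries exceeds 1. RPKM is the number of reads of a gene per kilobase of transcript, scaled to the reads of the library, so that levels can be compared between genes.

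RNA was sequenced from bone marrow cells of normal mice and of mice with a chronic myelogenous leukaemia (CML)-like disease, in 8 libraries. Normal cells gave LT-HSC replicates 1 and 2 (long-term stem cells, labelled 2 and 6 months old), 1 ST-HSC library (short-term stem cells, 2 months) and 1 normal KLS- library (committed progenitors, 2 months), and CML cells gave LT-CML replicates 1 and 2, 1 ST-CML library and 1 CML-KLS- library, for which the labels give no age. The study's methods describe littermates of one young age range on the FVB/N background, whereas the labels give C57BL/6 as the strain of each library and both ages above, so which mice gave the libraries cannot be told from these sources. By the methods both groups carried Tal1-tTA, and the CML mice also TRE-BCR-ABL1, which is switched on when doxycycline is withdrawn. The Tal1 promoter directs the tTA activator to blood stem cells. LT cells were sorted as CD150+CD48-CD135- KLS+ cells, ST cells as CD150-CD48-CD135- KLS+ cells, and KLS- cells as cKit+ lineage- Sca-1- cells. Only the LT populations had replicates (n = 2 each), and nothing in the labels says that they came from separate mice, so p-values measure the spread between these libraries.

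Dipeptides can also reach a cell from outside through the Slc15a peptide transporters, and the study asked how CML stem cells handle them. Cytosolic Pepd (prolidase, which splits dipeptides ending in proline) and Cndp2 (a dipeptidase of broad specificity) act on dipeptides themselves. Lap3 (leucine aminopeptidase) and Npepps (puromycin-sensitive aminopeptidase) remove single residues from the amino end, Dpp3, Dpp7, Dpp8 and Dpp9 remove dipeptides, and Tpp1 and Tpp2 remove tripeptides. Dpp7 and Tpp1 work in the lysosome or related vesicles, and the others mainly in the cytosol.

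In the GENCODE M1 annotation of mm9, Pepd is on chromosome 7 (35697398 to 35829729, plus strand), Lap3 on chromosome 5 (45884613 to 45903913, plus) and Npepps on chromosome 11 (97067156 to 97141952, minus). The dipeptidyl peptidase genes are on 4 chromosomes, Dpp3 on chromosome 19 (4907229 to 4928287, minus), Dpp7 on chromosome 2 (25207796 to 25211879, minus), Dpp8 on chromosome 9 (64880265 to 64930457, plus) and Dpp9 on chromosome 17 (56326105 to 56358312, minus). Tpp1 is on chromosome 7 (112893334 to 112900738, minus) and Tpp2 on chromosome 1 (43990847 to 44059844, plus).

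The RefSeq table used here (GRCm38.p6) held 10 promoters for 9 of the 10 genes, and no promoter of Cndp2 was used here. The 250 bases before the start of 5 of them are shown because these genes stand for both behaviours described below: Lap3, Dpp7 and Dpp9 were higher in KLS- cells, and Dpp8 and Tpp1 did not pass the test there. Capitals mark the E-box CACGTG, the CCAAT box, the GC box GGGCGG and the TATA box TATAAA on either strand, and the sequences read 5′ to 3′ on the strand of the gene.
Lap3, chr5:45493124-45493373, plus strand: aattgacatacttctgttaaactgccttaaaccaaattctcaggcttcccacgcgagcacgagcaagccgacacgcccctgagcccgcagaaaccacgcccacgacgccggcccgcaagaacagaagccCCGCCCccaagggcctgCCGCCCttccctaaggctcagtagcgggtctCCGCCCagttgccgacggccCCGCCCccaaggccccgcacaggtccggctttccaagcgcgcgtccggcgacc
Dpp7, chr2:25356333-25356582, minus strand: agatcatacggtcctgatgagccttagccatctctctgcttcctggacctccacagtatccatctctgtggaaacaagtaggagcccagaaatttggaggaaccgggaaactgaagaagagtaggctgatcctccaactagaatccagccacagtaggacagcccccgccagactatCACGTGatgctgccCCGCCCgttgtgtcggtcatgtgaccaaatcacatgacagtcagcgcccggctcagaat
Dpp9, chr17:56218890-56219139, minus strand: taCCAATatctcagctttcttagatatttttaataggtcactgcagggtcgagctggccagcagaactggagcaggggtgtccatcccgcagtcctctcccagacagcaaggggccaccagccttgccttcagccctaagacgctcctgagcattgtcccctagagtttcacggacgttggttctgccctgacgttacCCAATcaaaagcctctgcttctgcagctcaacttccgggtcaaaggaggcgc
Dpp8, chr9:65032208-65032457, plus strand: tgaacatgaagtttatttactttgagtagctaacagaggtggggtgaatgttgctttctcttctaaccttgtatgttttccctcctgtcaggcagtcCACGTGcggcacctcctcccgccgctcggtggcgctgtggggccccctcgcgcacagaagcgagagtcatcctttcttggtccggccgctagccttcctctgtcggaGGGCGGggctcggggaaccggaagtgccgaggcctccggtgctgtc
Tpp1, chr7:105752236-105752485, minus strand: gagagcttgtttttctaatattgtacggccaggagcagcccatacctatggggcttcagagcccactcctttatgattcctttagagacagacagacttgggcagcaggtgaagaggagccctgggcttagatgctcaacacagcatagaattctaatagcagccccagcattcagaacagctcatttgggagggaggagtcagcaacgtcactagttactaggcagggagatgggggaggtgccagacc

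GGGCGG occurred in the promoters of 7 of the 9 genes, and in 32.7% of all 32851 RefSeq promoters taken over the same length. Lap3 held it 4 times and Tpp1 not at all. CACGTG, which is its own reverse complement, was found for 2 genes, Dpp7 and Dpp8 (6.0% of all promoters), CCAAT for 2, Dpp9 and Tpp2 (33.8%), and TATAAA for 0 (12.4%). The promoters shown were 66.0% G and C for Lap3, 53.6% for Dpp7, 54.8% for Dpp9, 59.6% for Dpp8 and 51.6% for Tpp1, against a median of 52.4% over all promoters. These matches are letters in a window: CACGTG was present both in a gene that was higher in KLS- cells (Dpp7) and in one that did not pass the test (Dpp8).

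Of facts that concern the whole series, the estimated depth was 17.8 to 23.9 M reads a library (M as in Mb). At this depth the 10 genes had an estimated 185 to 2819 reads each, and the counting error of a value was at most 7.34%. Kit was between 78.4 and 213 RPKM in the 8 libraries. Ly6a, the gene of Sca-1, was 72.4 RPKM or more in the 6 stem cell libraries and at most 11.7 in the KLS- libraries. Slamf1 (CD150) was 10.7 to 35.45 RPKM in the LT libraries and 1.108 and 2.874 in ST-HSC and ST-CML. Flt3 (CD135) was 61.61 and 71.6 RPKM in ST-HSC and ST-CML, 2.519 to 19.24 in LT and at most 17.05 in KLS- libraries. Cd48 was 41.79 and 45.15 RPKM in ST-HSC and ST-CML, 5.169 to 29.48 in LT and 128.8 or more in KLS- libraries. Flt3 and Cd48 were thus higher in ST than in LT libraries, although both populations were sorted as CD48-CD135-. LT-HSC replicate 2 and LT-CML replicate 2 stood apart from the other stem cell libraries. Both held Ddx3y, a Y-linked transcript, at 31.0 and 17.5 RPKM against at most 0.0625 in the others. They differed in Xist, a transcript of female cells, at 0.154 RPKM in LT-HSC replicate 2 and 13.5 in LT-CML replicate 2. In the other libraries Xist was 12.4 to 30.8 RPKM. The summed level of 9 neutrophil genes was between 255 and 4165 RPKM in the normal stem cell libraries and between 321 and 3831 in the CML stem cell libraries, with the highest value in replicate 2 of each LT population. ST-CML had 2168 RPKM. The normal KLS- library had 13072 and the CML-KLS- library 21234, and none of the 9 genes was at 0. Mpo (7891 and 13120 RPKM) and Ela2 (3582 and 5672) made up most of the KLS- sums. Camp, Ngp, Ltf, S100a8 and S100a9 were lower in both KLS- libraries than in replicate 2 of either LT population. The largest value was S100a8 in LT-HSC replicate 2 (1802 RPKM) and Mpo in LT-CML replicate 2 (1291 RPKM).

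All 10 transcripts were present in each library, from 2.96 RPKM (Dpp7 in ST-HSCs) to 49.0 RPKM (Pepd in CML-KLS- cells). By the mean over the 8 libraries the order was Lap3 (32.4 RPKM), Tpp1 (32.3), Pepd (30.9), Tpp2 (17.0), Dpp3 (13.6), Cndp2 (10.3), Npepps (7.99), Dpp9 (5.83), Dpp8 (4.99) and Dpp7 (4.60). Lap3, Tpp1 and Pepd overlapped in their ranges, as did the 3 lowest, Dpp9, Dpp8 and Dpp7. Lap3 was above 91.5% of all genes in the files and Dpp7 above 67.5%. Together the 10 genes took 0.0327% (LT-HSC replicate 2) to 0.0463% (CML-KLS-) of the summed RPKM of a library. Their sum was lowest in LT-HSC replicate 2, at 117 RPKM, and highest in CML-KLS- cells, at 216 RPKM. In the normal KLS- library the sum was 187 RPKM, but the share, 0.0421%, was below that of LT-CML replicate 2 (0.0440%).

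**Figure D1:**
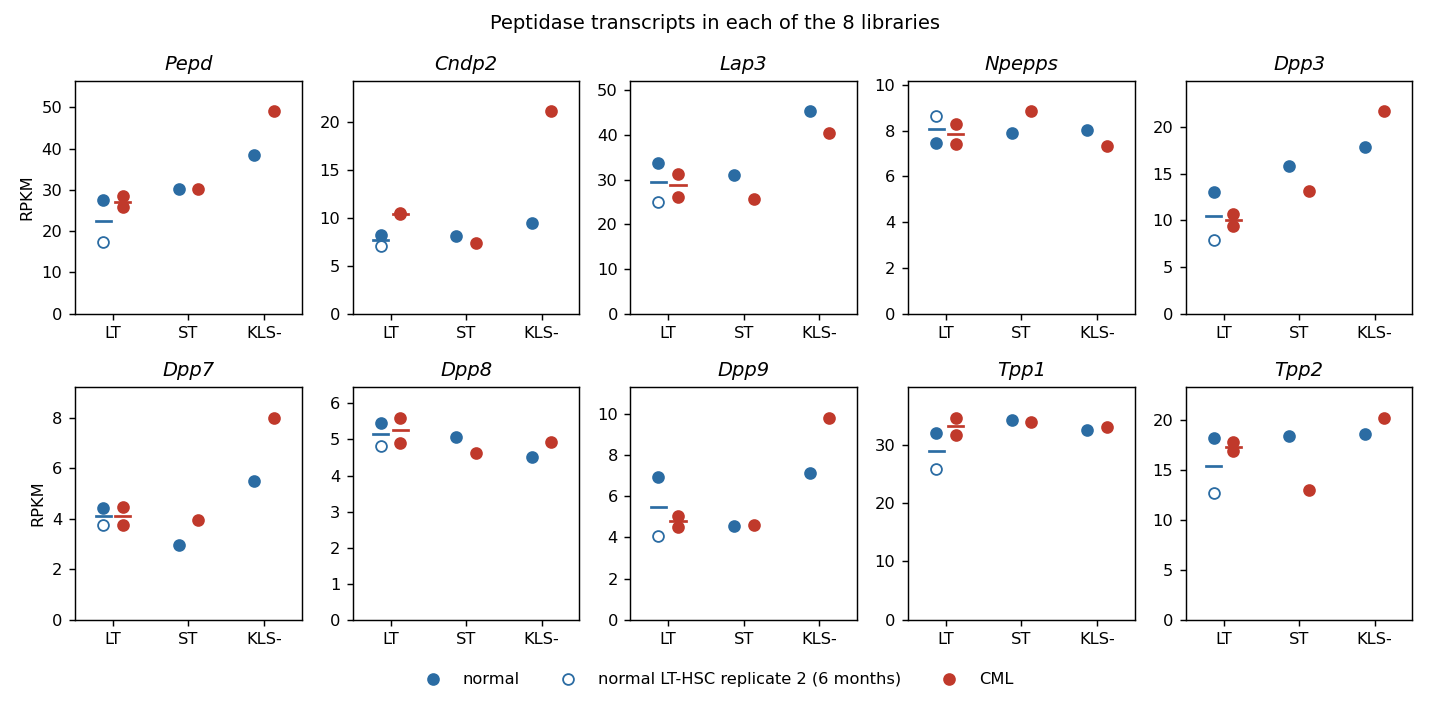
RPKM (vertical axis, linear and starting at 0, a scale of its own for each gene) of the 10 peptidase genes in LT, ST and KLS- cells of normal (blue) and CML (red) mice, with 1 point a library and a short line at the mean of the LT replicates. The open circle is LT-HSC replicate 2, the lowest library for 7 of the 10 genes, and the CML-KLS- point is the highest for 6 of them.

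The first comparison asked whether these enzymes differed between CML stem cells (LT-CML replicates 1 and 2 and ST-CML, n = 3) and normal HSCs (LT-HSC replicates 1 and 2 and ST-HSC, n = 3). None of the 10 transcripts passed the test, with Cndp2 and Pepd showing the largest positive differences and Lap3 the largest negative one. Pepd was 28.4, 25.9 and 30.3 RPKM in LT-CML replicates 1 and 2 and ST-CML, and 27.5, 17.4 and 30.3 RPKM in LT-HSC replicates 1 and 2 and ST-HSC. The groups overlapped, and only LT-HSC replicate 2 lay apart. Its difference on the log2(RPKM + 1) scale was 0.20 (standard error 0.21, adjusted p = 0.777, Benjamini-Hochberg over all 12561 genes, from limma), and it was -0.035 without LT-HSC replicate 2.

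Cndp2, the dipeptidase, had values of 10.4, 10.5 and 7.38 RPKM in LT-CML replicates 1 and 2 and ST-CML, and of 8.26, 7.12 and 8.17 RPKM in LT-HSC replicates 1 and 2 and ST-HSC. It was thus higher in both LT-CML libraries than in each normal library, and lower in ST-CML than in ST-HSC. The difference between CML stem cells and normal HSCs was 0.22 on the log2(RPKM + 1) scale (standard error 0.17, 95% interval -0.18 to 0.63, adjusted p = 0.677 from limma), the largest of the 10, and its interval included 0.

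The aminopeptidases differed less. Lap3 was 31.3, 26.2 and 25.7 RPKM in the CML stem cell libraries (LT replicates 1 and 2 and ST) and 33.7, 25.1 and 31.1 in the normal ones, in the same order. Npepps was 8.31, 7.43 and 8.84 RPKM against 7.46, 8.66 and 7.89. In both genes the groups overlapped, and the differences were -0.10 (standard error 0.16, adjusted p = 0.854 from limma) for Lap3 and 0.03 (standard error 0.14, adjusted p = 0.959) for Npepps on the log2(RPKM + 1) scale.

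Among the enzymes that release dipeptides, Dpp3 was 10.6, 9.36 and 13.08 RPKM in LT-CML replicates 1 and 2 and ST-CML, and 13.02, 7.85 and 15.8 in the corresponding normal libraries. Dpp7 was 3.74, 4.45 and 3.96 RPKM against 4.42, 3.77 and 2.96. Both overlapped between the groups, and in Dpp3 the ST library was the highest on either side. Dpp8, a cytosolic enzyme that cleaves after proline, was 5.61, 4.89 and 4.63 RPKM against 5.45, 4.83 and 5.07. Its close relative Dpp9 was 5.04, 4.52 and 4.59 RPKM against 6.94, 4.05 and 4.56. The single high value of Dpp9 was that of LT-HSC replicate 1, and differences for the 4 genes were between -0.10 (Dpp3) and 0.11 (Dpp7) on the log2(RPKM + 1) scale, with adjusted p between 0.857 and 0.975 from limma.

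Tpp1, the lysosomal tripeptidyl peptidase, was 34.7, 31.7 and 34.0 RPKM in LT-CML replicates 1 and 2 and ST-CML and 32.0, 25.8 and 34.3 in the corresponding normal libraries, a difference of 0.13 (standard error 0.15, adjusted p = 0.789 from limma). Tpp2, a very large cytosolic complex, was 16.9, 17.8 and 12.98 RPKM against 18.2, 12.7 and 18.4, a difference of -0.04 (standard error 0.19, adjusted p = 0.962). The lowest library was ST-CML among CML stem cells and LT-HSC replicate 2 among normal HSCs.

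Over the 10 genes, 0 passed an adjusted p of 0.05 in this comparison, against 2.34% of all genes tested, and 0 had an unadjusted p under 0.05, against 12.5% of all genes. Their median difference was 0.005 on the log2 scale, against -0.041 over all genes. The intervals set a limit to what could be missed: the widest, that of Dpp3, ran from -0.68 to 0.49, and that of Npepps from -0.30 to 0.36. In none of the 10 did every CML stem cell library lie above every normal HSC library (6.92% of all genes) or below (11.4%). A bulk library cannot tell fewer cells of one type from less RNA per cell, which holds for each value given here.

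The second comparison was restricted to LT cells, LT-CML against LT-HSC (n = 2 each), and uses 4 of the same libraries as the first. Again 0 of the 10 genes passed, against 1.73% of all genes. Cndp2 had the largest difference, 0.40 on the log2(RPKM + 1) scale (standard error 0.19, 95% interval -0.04 to 0.85, adjusted p = 0.495 from limma), with 10.46 ± 0.0919 RPKM (SD, n = 2) in LT-CML and 7.69 ± 0.805 (SD, n = 2) in LT-HSC cells. For Pepd the difference was 0.29 (standard error 0.24, adjusted p = 0.739), which became -0.020 without LT-HSC replicate 2. The other 8 genes were between -0.13 (Dpp9) and 0.20 (Tpp1).

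The LT-HSC replicates differed from each other in these genes more than the LT-CML replicates did. In 9 of the 10 genes replicate 1 was above replicate 2, by 1.72 times for Dpp9, 1.66 for Dpp3 and 1.58 for Pepd, and Npepps was the exception at 0.862. These are ratios of RPKM. On the log2(RPKM + 1) scale, the median difference of replicate 1 from replicate 2 was 0.35 over the 10 genes and 0.05 over all genes tested. Between the LT-CML replicates 7 of the 10 were higher in replicate 1, with a median of 0.13 against 0.09 over all genes. LT-HSC replicate 2 was the lowest of the 8 libraries for 7 of the 10 genes, against 25.0% of the 6344 genes with a mean of at least 5 RPKM. Dpp7 and Dpp8, with means of 4.60 and 4.99 RPKM, are outside that set and are not among the 7. LT-HSC replicate 2 was also the library labelled 6 months old, with Ddx3y at 31.0 RPKM. S100a8, a neutrophil gene, was at 1802 RPKM there against 214 in replicate 1. The part of age, sex and neutrophil RNA in these lower values was not tested.

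Between CML and normal cells of the ST stage there was 1 library each and no test. None of the 10 genes differed by more than 1.5-fold, whereas 12.3% of all genes were higher and 14.5% lower by that much in ST-CML. Tpp2 had the lowest ratio of ST-CML to ST-HSC, 0.706, and Dpp7 the highest, 1.34. Pepd, Dpp9 and Tpp1 had ratios of 1.001, 1.005 and 0.990 on the deposited scale. These values moved with the scaling of the libraries. With quantile normalization the log2 ratio of RPKM was 0.18 for Pepd and 0.14 for Tpp1. With upper-quartile scaling it was 0.17 and 0.16, and that of Dpp7 was 0.59, just past 1.5-fold.

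Cndp2 was the exception between the KLS- libraries. The CML-KLS- library had 21.2 RPKM and the normal KLS- library 9.44, a ratio of 2.24, and was the one gene of the 10 past 1.5-fold, against 14.1% of all genes higher and 14.3% lower by that much in CML-KLS- cells. No other of the 8 libraries was above 10.5 RPKM. Dpp7 followed at 1.46 (8.004 against 5.49 RPKM), Dpp9 at 1.38 (9.82 against 7.11), Pepd at 1.28 (49.0 against 38.4) and Dpp3 at 1.22 (21.7 against 17.8). Lap3 (0.895) and Npepps (0.914) had ratios under 1. With an estimated 798 and 405 reads, the Cndp2 ratio was beyond counting error, but no replicate shows how far KLS- libraries of the same kind vary.

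KLS- progenitors against stem cells gave the differences that passed the test. In the fit of all 8 libraries with disease as a covariate, 6 of the 10 genes were higher in KLS- cells: Pepd, Cndp2, Lap3, Dpp3, Dpp7 and Dpp9. That is to be read against 48.7% of all genes called in either direction and 22.2% called higher in KLS- cells. None was called lower. The median difference of the 10 genes was 0.61 on the log2(RPKM + 1) scale, against -0.08 over all genes tested.

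Of the lysosomal enzymes, Dpp7 was 5.49 and 8.004 RPKM in normal and CML KLS- cells and between 2.96 and 4.45 RPKM in the 6 stem cell libraries, so that the groups did not overlap. Its difference, 0.69 on the log2(RPKM + 1) scale (standard error 0.16, adjusted p = 0.00636 from limma), had the smallest adjusted p of the 10. Tpp1 showed nothing of the kind, with 32.5 and 33.0 RPKM in KLS- cells inside the stem cell range of 25.8 to 34.7 RPKM and a difference of 0.01 (standard error 0.13, adjusted p = 0.944), whose sign turned under quantile and upper-quartile scaling.

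Among the 10 genes, the dipeptidases Pepd and Cndp2 were both called higher in KLS- cells. Pepd was 38.4 and 49.0 RPKM in normal and CML KLS- cells against 17.4 to 30.3 in stem cells, without overlap, a difference of 0.66 (standard error 0.17, adjusted p = 0.0136 from limma). Cndp2 was 9.44 and 21.2 RPKM against 7.12 to 10.5, and here the normal KLS- library lay inside the stem cell range. Its difference of 0.70 (standard error 0.21, adjusted p = 0.0222 from limma) therefore rested on the CML-KLS- library, and fell to 0.27 (adjusted p = 0.411 from limma) without it.

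Lap3 was the aminopeptidase that changed. It was 45.3 and 40.6 RPKM in normal and CML KLS- cells and 25.1 to 33.7 in stem cells, a difference of 0.57 (standard error 0.15, adjusted p = 0.0123 from limma). Npepps was 8.01 and 7.32 RPKM in KLS- cells against 7.43 to 8.84 in stem cells, a difference of -0.08 (standard error 0.13, 95% interval -0.38 to 0.22, adjusted p = 0.639).

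Of the cytosolic dipeptidyl peptidases, Dpp3 was 17.8 and 21.7 RPKM in normal and CML KLS- cells and 7.85 to 15.8 in stem cells, a difference of 0.66 (standard error 0.19, adjusted p = 0.0192 from limma). Dpp9 was 7.11 and 9.82 RPKM against 4.05 to 6.94, a difference of 0.69 (standard error 0.20, adjusted p = 0.0192). Both were separated, although for Dpp9 LT-HSC replicate 1 (6.94 RPKM) lay close below the normal KLS- library (7.11 RPKM). Dpp8 did not follow its relative: at 4.51 and 4.93 RPKM in KLS- cells against 4.63 to 5.61 in stem cells, the difference was -0.07 (standard error 0.13, 95% interval -0.37 to 0.22, adjusted p = 0.662), with a sign that turned under quantile normalization. Within each library the ratio of Dpp9 to Dpp8 was between 0.838 and 1.27 in stem cells, 1.58 in the normal and 1.99 in the CML KLS- library. For Tpp2, 18.6 and 20.3 RPKM in KLS- cells lay above the stem cell range of 12.7 to 18.4, with a difference of 0.28 (standard error 0.18, adjusted p = 0.237).

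**Figure D2:**
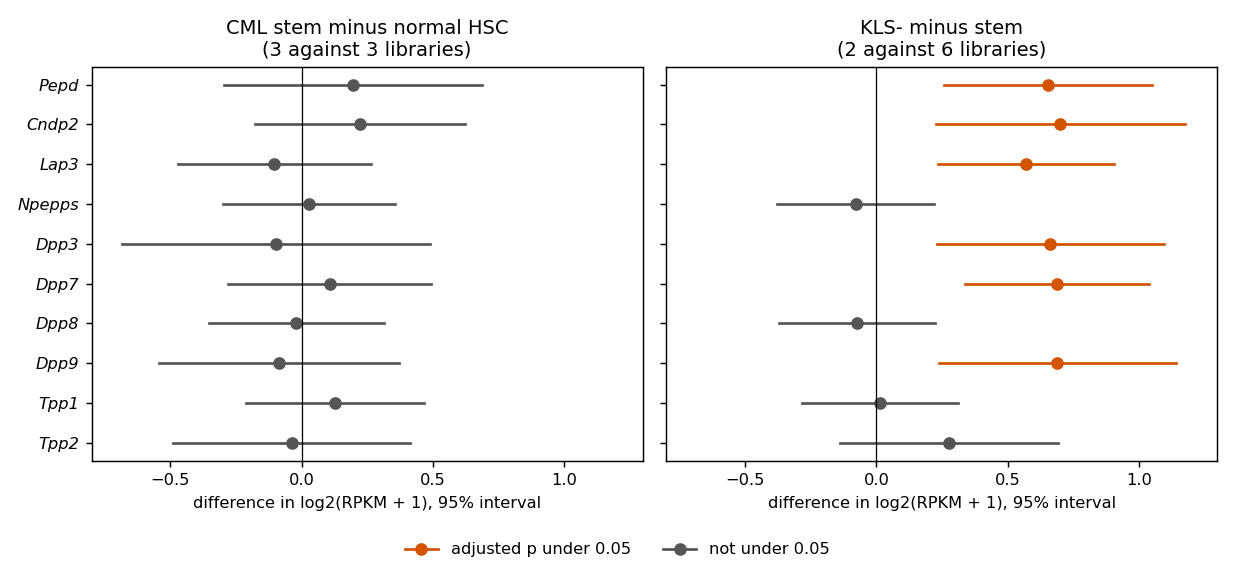
Difference in log2(RPKM + 1) with its 95% interval from limma for each of the 10 genes, CML stem cells minus normal HSCs on the left and KLS- minus stem cells on the right. All 10 intervals on the left include 0, and on the right the 6 genes in orange, with an adjusted p under 0.05, lie above 0.

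Both KLS- libraries lay above every stem cell library for 6 genes, Pepd, Lap3, Dpp3, Dpp7, Dpp9 and Tpp2, against 21.9% of all genes, and below for 0, against 27.7%. This count, and those within mice of one kind below, used the deposited RPKM, whose sum over a library ran from 324114 to 465695. As a share of that sum, the 10 genes together took 0.0421% in normal KLS- cells, inside the stem cell range of 0.0327% to 0.0440%. Separation after scaling to a common sum was not tested. The calls depended on single libraries. With CML-KLS- left out, 0 of the 10 genes passed, with normal KLS- as the lone progenitor library. Without ST-CML 2 passed (Lap3 and Dpp7), and without normal KLS- 4 passed, Pepd and Lap3 being lost (adjusted p = 0.0692 and 0.107 from limma) although their differences, 0.73 and 0.54, stayed close to 0.66 and 0.57. Without CML-KLS- the differences of Lap3 (0.60) and Pepd (0.58) also stayed close (adjusted p = 0.0896 and 0.138 from limma), while Dpp9 fell from 0.69 to 0.44 and Cndp2 from 0.70 to 0.27. Without normal KLS- Cndp2 was 1.13. Without LT-HSC replicate 2 and LT-CML replicate 2 together, an alternative chosen after the data were seen, 6 passed. Quantile normalization lost Pepd (0.37, adjusted p = 0.0538 from limma) and Lap3 (0.28, adjusted p = 0.067), and Cndp2 was lost without a covariate for disease (adjusted p = 0.0726) and without a minimum on RPKM (adjusted p = 0.0514).

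Within mice of one kind the same 7 genes, the 6 called and Tpp2, were higher in the KLS- library than in all 3 stem cell libraries, in normal mice (32.3% of all genes) and in CML mice (35.5%). In normal mice the KLS- library exceeded the mean of the stem cell libraries 1.53-fold for Pepd, 1.51-fold for Lap3, 1.48-fold for Dpp7, 1.46-fold for Dpp3, 1.37-fold for Dpp9, 1.202-fold for Cndp2 and 1.13-fold for Tpp2. In CML mice the ratios were 1.74 for Pepd, 1.46 for Lap3, 1.98 for Dpp7, 1.964 for Dpp3, 2.08 for Dpp9, 2.24 for Cndp2 and 1.27 for Tpp2. The median log2 ratio of the 10 genes was 0.36 in normal and 0.67 in CML mice. Npepps, Dpp8 and Tpp1 were between 0.881 and 1.06 in both.

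**Figure D3:**
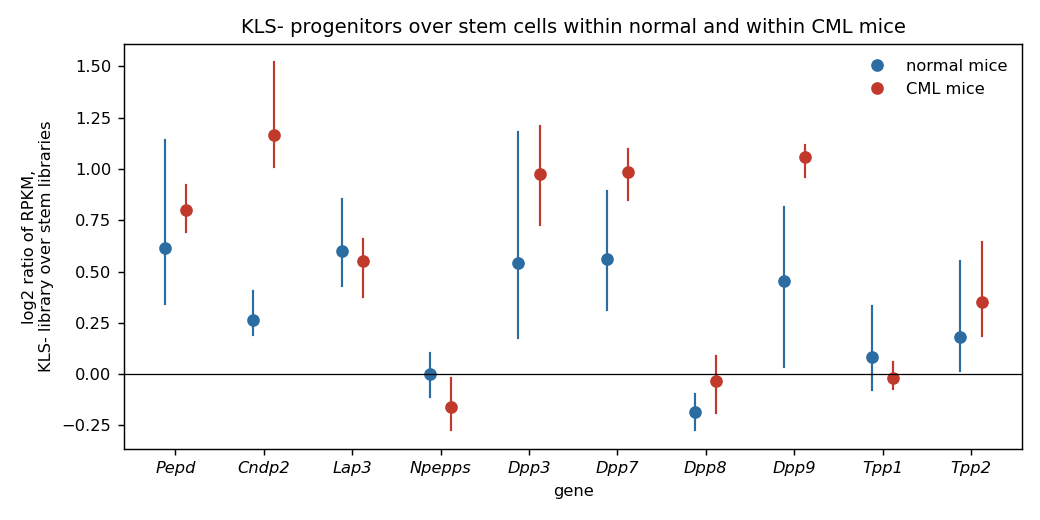
Log2 ratio of RPKM in the single KLS- library to the mean of the 3 stem cell libraries of the same mice (points), with a line from the ratio to the highest to the ratio to the lowest stem cell library, in normal (blue) and CML (red) mice. For 7 genes both lines lie above 0, and Cndp2 is the gene whose lines are furthest apart, at ratios of 1.202 and 2.24.

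Whether the step from stem cells to KLS- cells differed between CML and normal mice was tested as an interaction. None of the 10 genes passed (0.00796% of all genes did, 1 gene of 12561). Cndp2 had the largest interaction, 0.86 on the log2(RPKM + 1) scale (standard error 0.34, 95% interval 0.06 to 1.66, unadjusted p = 0.0378 and adjusted p = 1 from limma), and was the one of the 10 with an unadjusted p under 0.05, against 2.58% of all genes. Each KLS- arm of this interaction was 1 library, so that the standard errors, intervals and p-values take all of their spread from the stem cell libraries. Dpp9 had 0.50 (standard error 0.39), and the others were between -0.14 (Npepps) and 0.37 (Dpp3).

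The KLS- gate holds progenitors of several lineages, and the summed markers of some of them moved with it. The summed levels of erythroid markers were 826 and 1814 RPKM in normal and CML KLS- cells against 7.02 to 96.7 in the stem cell libraries. Car1 alone made up most of these sums (804.5 and 1775 RPKM against 2.71 to 91.7), whereas Hbb-b1 was 2.21 and 1.61 RPKM in the KLS- libraries and 56.3 in LT-HSC replicate 2, and Hba-a1 was listed at 0 in all 8 libraries. Monocyte and macrophage markers summed to 980 and 1287 RPKM against 174 to 376. Ly6c2 alone made up most of these sums (784.6 and 1039 RPKM). Lyz2 was lower in both KLS- libraries (116.8 and 112.6 RPKM) than in every stem cell library (117.9 to 314.6). Itgam, at 4.18 and 6.50 RPKM, lay inside the stem cell range of 1.85 to 12.8. Mast cell and basophil markers summed to 97.5 and 83.5 RPKM against 4.002 to 23.7. These sums moved with the 6 genes called higher, as did 4 of the 9 neutrophil genes, 5 of 7 monocyte, 3 of 6 erythroid and 3 of 4 mast cell genes, which lay above every stem cell library. Markers of megakaryocytes (88.1 and 55.6 RPKM against 30.9 to 470), B cells (46.9 and 42.5 against 31.0 to 55.9) and T cells (0.613 and 2.01 against 1.296 to 3.27) did not. Emr1, Hbb-b1, Gp1bb, Cd3e and Cd3g were at 0 in at least 1 library. The part of these cell types in the higher peptidase values was not tested.

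ST against LT cells, in the same fit, gave 0 of the 10 genes, against 4.87% of all genes. Dpp3 had the largest difference, with 15.8 and 13.1 RPKM in normal and CML ST cells and 7.85 to 13.02 in the LT libraries, so that ST was higher by 0.47 on the log2(RPKM + 1) scale (standard error 0.20, unadjusted p = 0.0416, adjusted p = 0.231 from limma). Pepd followed at 0.30 (standard error 0.18, adjusted p = 0.408), and the other 8 were between -0.20 (Dpp7) and 0.14 (Tpp1).

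A list of 41 other peptidases and related hydrolases gave the setting. Of these 40 were found in the files and 30 were tested. Between CML stem cells and normal HSCs 2 of the 30 passed, both lower in CML, against 2.34% of all genes in either direction. Metapl1 (now Metap1d, a mitochondrial methionine aminopeptidase) was 6.37, 6.46 and 5.33 RPKM in LT-CML replicates 1 and 2 and ST-CML and 21.7, 18.9 and 18.2 in the corresponding normal libraries, and 5.22 against 15.5 in the KLS- libraries. It fell by 1.55 on the log2(RPKM + 1) scale (standard error 0.15, adjusted p = 0.00218 from limma), with no overlap. Prcp, a lysosomal carboxypeptidase that cleaves after proline, was 13.7, 15.5 and 10.4 RPKM against 29.4, 30.6 and 24.9, and 15.3 against 28.3 in the KLS- libraries, a fall of 1.06 (standard error 0.18, adjusted p = 0.0258). The call of Prcp was lost without LT-HSC replicate 1, LT-HSC replicate 2, LT-CML replicate 1 or ST-CML (adjusted p between 0.0573 and 0.123), and that of Metapl1 with both LT replicates 2 left out (0.0587). In LT cells alone both were again called lower (adjusted p = 0.0115 for Metapl1 and 0.0482 for Prcp from limma), and both calls were lost when any LT library was left out.

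In KLS- against stem cells 12 of the 30 were called higher and 2 lower, against 22.2% and 26.5% of all genes, with a median difference of 0.35. Lta4h, an aminopeptidase that also makes leukotriene B4, was 311 and 239 RPKM in normal and CML KLS- cells against 53.4 to 89.9 in stem cells, a difference of 1.94 (standard error 0.20, adjusted p = 0.000154 from limma). Metap2 (0.88), Rnpep (0.89), 2010111I01Rik (0.74), Xpnpep1 (1.16) and Acy1 (0.88), which encode enzymes that remove amino-terminal residues or, for Acy1, acetyl groups from amino acids, followed by adjusted p (0.00193 or less). The 2 called lower, named after their values were seen, were Anpep (-0.87), a surface aminopeptidase also known as CD13, and Pgcp (-0.69), a secreted carboxypeptidase. In ST against LT cells and in the interaction 0 of the 30 passed, against 4.87% and 0.00796% of all genes.

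**Figure D4:**
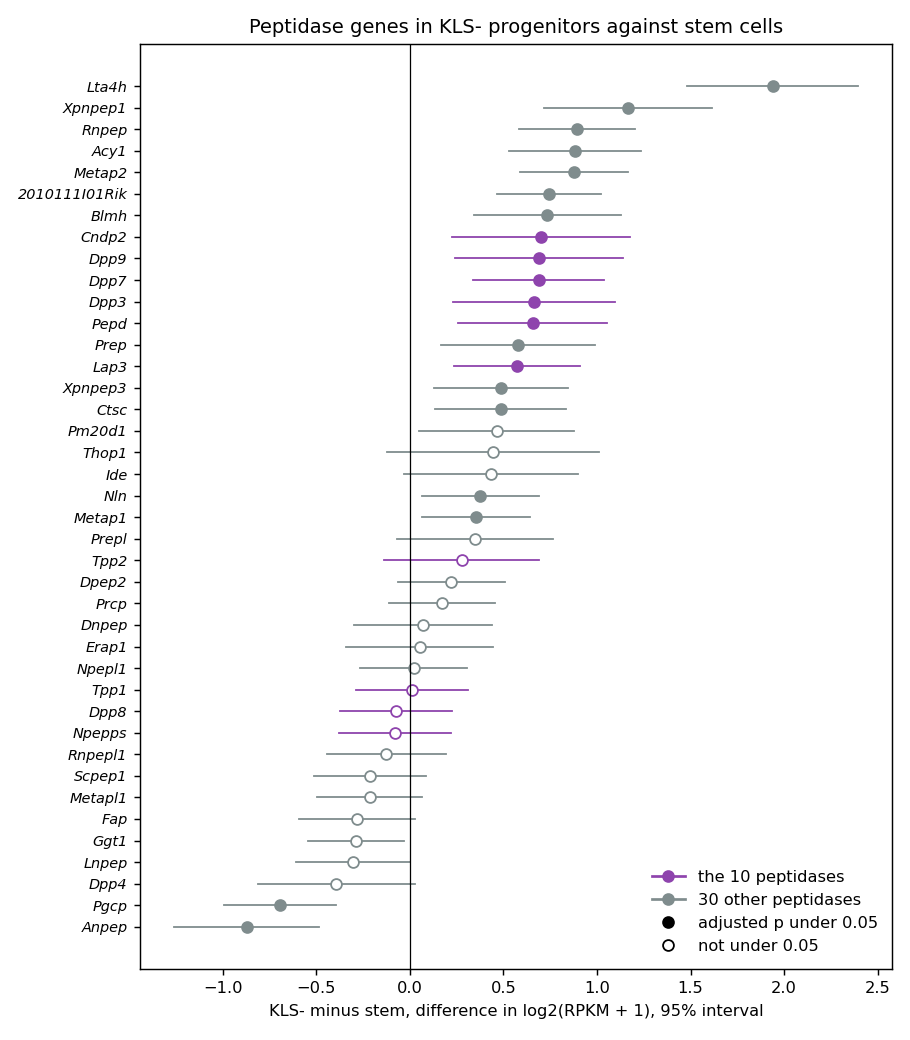
Difference in log2(RPKM + 1) between KLS- and stem cells with its 95% interval from limma, for the 10 peptidases (purple) and the 30 other peptidases tested (grey), sorted by size, where filled points have an adjusted p under 0.05. The 6 purple genes called lie between 0.57 and 0.70, below Lta4h at 1.94 and above Anpep at -0.87.

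The peptide transporters were set beside the dipeptidases because both act on the same pool. Slc15a2 was 8.75, 9.94 and 10.3 RPKM in LT-CML replicates 1 and 2 and ST-CML and 2.64, 3.07 and 3.13 in the corresponding normal libraries. In CML and normal KLS- cells it was 2.28 and 1.31 RPKM. The study named this gene from its own RNA sequencing screen. It also reported quantitative RT-PCR, uptake of a labelled dipeptide analogue, and colony assays with shRNA against the gene. Because the screen drew on these deposited data, the p-values below are no independent test of Slc15a2. Its difference between CML stem cells and normal HSCs was 1.43 on the log2(RPKM + 1) scale (standard error 0.14, adjusted p = 0.00285 from limma). In LT cells alone the difference was 1.42 (standard error 0.20, adjusted p = 0.0174 from limma). It was 1.34 to 1.51 with 1 LT library left out, which leaves a lone library in that arm. As for Metapl1 and Prcp, the call of Slc15a2 in LT cells was lost when any LT library was left out. Within each library the ratio of Slc15a2 to Cndp2 was 0.320 to 0.431 in normal stem cells and 0.842 to 1.39 in CML stem cells, and 0.138 and 0.108 in normal and CML KLS- cells. Slc15a2 and Cndp2 thus had their highest values in different libraries, Slc15a2 in ST-CML and Cndp2 in CML-KLS-. In KLS- against stem cells Slc15a2 fell by 1.25 on the log2(RPKM + 1) scale (standard error 0.20, adjusted p = 0.0013 from limma), by 0.79 without CML-KLS- (adjusted p = 0.0245) and by 1.72 without normal KLS-, and Slc15a4 was higher by 0.62 (standard error 0.16, adjusted p = 0.0119). Slc15a1 and Slc15a3 were at most 0.255 and 0.429 RPKM and did not pass in any comparison.

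The genes whose levels followed a peptidase most closely over the 8 libraries were found by the mean absolute difference between centred log2(RPKM + 1) profiles, among 6344 genes with a mean of at least 5 RPKM. For Lap3 they were Ube2n (0.0266), Snx12 (0.0441) and Tmem167 (0.0458), and for Tpp1 Dcaf12 (0.0313), Hp1bp3 (0.0334) and Usp8 (0.0389). Zswim1 (0.0653) and Drg2 (0.0659) were among the 3 closest to Pepd, and Lars (0.120) and Fech (0.129) among the 3 closest to Cndp2. Lars was 39.4 RPKM in the CML-KLS- library, 26.6 in the normal KLS- library and 15.6 to 25.4 in stem cells.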

How the data were processed

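LT, ST and KLS- cells sorted from the bone marrow of normal and leukaemic mice were profiled in 8 libraries, grouped by their labels. The authors made cDNA with the SMARTer Ultra Low Input kit, sequenced both ends of each fragment (100 bases) and mapped the reads to mm9 through a commercial service. The deposited values are RPKM, 1 for each gene and library. The annotation and counting rule are not given in the sources used here. Because RPKM values are not counts, log2(RPKM + 1) was fitted with limma 3.58.1 (R 4.3.3; eBayes, trend) for the 12561 genes whose summed RPKM exceeded 1. All p-values were adjusted over these genes by the Benjamini-Hochberg method, two-sided, with a threshold of 0.05. This scale understates changes of low genes.

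CML stem against normal HSC libraries were fitted as 3 against 3, as the study pooled them. LT cells were compared in a fit of 8 libraries with 6 population means. KLS- against stem cells (the mean of LT and ST) and ST against LT used population and disease, and the interaction used KLS- or stem cells and disease. ST and KLS- libraries without replicates were compared as ratios of RPKM, with 1.5-fold as the mark. Reads were estimated from the whole steps of low RPKM values (81.7% of 3292 low genes within a tolerance of 0.05) and GENCODE M1 exon lengths, and counting errors cover sampling of reads only. Promoters came from RefSeq tables (GRCm38.p6), matched by symbol, and were not joined to mm9 coordinates.

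The 10 genes are named in each comparison. Of the other peptidases, up to 6 with the smallest adjusted p under 0.05 are named, with the Slc15a genes, and for Pepd, Cndp2, Lap3 and Tpp1 the 3 genes of closest profile, of which some are not reported here. The genes and lists were chosen with earlier results of these data known. Other settings tried were a smaller pseudocount, no minimum or a stricter one, quantile normalization, upper-quartile scaling, other covariates and the omission of each library. The fits were tested on simulated data. Python 3.11.15 with pandas 2.3.3, numpy 2.4.6 and matplotlib 3.10.9 was used otherwise.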

Additional observations from a re-analysis of the deposited data

How the results depend on the processing

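In CML stem against normal HSC, LT, ST against LT and interaction comparisons, 0 of the 10 genes passed under each alternative that could be fitted. In KLS- against stem cells the number passing was 0 to 6 with 1 library left out, 4 with quantile normalization (Pepd and Lap3 lost, adjusted p = 0.0538 and 0.067 from limma), 5 without a minimum and 5 without the disease covariate (Cndp2 lost, 0.0514 and 0.0726), and 6 with pseudocount 0.1, with a mean of at least 1 RPKM and with upper-quartile scaling. Slc15a2 in this comparison was lost without the disease covariate (0.0874). In LT cells Slc15a2, Metapl1 and Prcp were lost without a minimum (0.218, 0.185 and 0.218) and Prcp with quantile normalization (0.0611). Between CML stem cells and normal HSCs Prcp was lost without a minimum (0.0658), and Prcp (0.136), Slc15a2 (0.0685) and Metapl1 (0.0587) without both LT replicates 2. The cause was not tested.

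Genes called overall moved from 294 to 193 without a minimum, 543 with a covariate for LT or ST cells and 38 without both LT replicates 2 in CML stem against normal HSC. Leaving out 1 library gave 115 to 217. The LT comparison gave 217, 0 without a minimum and 6 to 74 with 1 library left out, where the lone library of an arm is assumed to vary like the others. KLS- against stem cells gave 6123 and 3178 to 6338 with 1 library left out. ST against LT gave 612, 283 without a minimum and 110 to 718 with 1 left out. The interaction gave 1, 0 with pseudocount 0.1, with a mean of at least 1 RPKM and without both LT replicates 2, 10 without a minimum and 0 to 1 with 1 left out.

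Among the tested differences, signs turned only for those that had not passed. With quantile normalization these were Dpp8 (0.012) and Tpp2 (0.0044) between CML stem cells and normal HSCs, Dpp7 (0.014) in LT cells, and Dpp8 (0.065) and Tpp1 (-0.25) in KLS- against stem cells. Upper-quartile scaling turned Dpp8 (0.017) and Tpp2 (0.0047) in the first comparison and Tpp1 (-0.12) in KLS- against stem cells, and leaving out both LT replicates 2 turned Tpp1 there (-0.041) and Lap3 in the interaction (0.027). With 1 library left out, log2 differences between CML stem cells and normal HSCs ran from -0.086 to 0.030 for Dpp8, -0.20 to 0.093 for Tpp2, -0.021 to 0.090 for Npepps, -0.22 to 0.11 for Dpp9, -0.035 to 0.35 for Pepd, -0.36 to 0.099 for Dpp3 and -0.014 to 0.21 for Dpp7. In LT cells they ran from -0.10 to 0.099 for Dpp7, -0.23 to 0.18 for Lap3, -0.35 to 0.31 for Dpp3, -0.46 to 0.19 for Dpp9, -0.020 to 0.61 for Pepd, -0.12 to 0.066 for Npepps, -0.058 to 0.11 for Dpp8 and -0.066 to 0.42 for Tpp2. For Tpp1 in KLS- against stem cells they ran from -0.042 to 0.067. In ST against LT they ran from -0.13 to 0.069 for Lap3, -0.21 to 0.048 for Dpp9, -0.57 to 0.19 for Cndp2, -0.038 to 0.17 for Npepps, -0.38 to 0.25 for Tpp2 and -0.050 to 0.28 for Slc15a2. In the interaction they ran from -0.14 to 0.065 for Lap3, -0.19 to 0.0072 for Tpp1 and -0.0028 to 0.38 for Pepd. In the untested log2 ratio of RPKM of ST-CML to ST-HSC, Tpp1 turned from -0.014 to 0.14 with quantile normalization. With upper-quartile scaling Tpp1 turned to 0.16, and Cndp2 (0.024) and Dpp8 (0.040) also turned. No paired analysis was possible because the labels of the normal LT libraries give ages and no replicate number. The ST and KLS- populations have 1 library each, so that their values carry no replicate error.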
